A study of Triticum aestivum with 3 samples.

Results

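Replicate 1 of a TaSPL6-D CUT&Tag experiment in wheat protoplasts held 4514 chromosomal peaks that overlapped, by 1 bp or more, no peak of replicate 2 and no peak of the mock. These replicate 1-only peaks were 44.0% of the 10269 replicate 1 peaks on the 21 chromosomes of bread wheat (Triticum aestivum), and 23003 peaks were deposited in all 3 lists. Most were low and narrow, and they lay at protein-coding genes in 46.6% of cases, or in 29.4% of the 1281 with a −log10 q of at least 5. Peaks of the same library that replicate 2 also called, and the mock did not, numbered 4951. Of these 53.5% lay at genes, and 42.7% of those with a −log10 q of at least 5. The 4951 are called recurrent peaks here and serve as the comparison, since they were measured in the same library.

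The groups were CUT&Tag replicates 1 and 2, with 1 library each, and 1 mock library. All came from protoplasts of seedlings that had taken up DNA in the presence of PEG, and per the labels the antibody was anti-GFP or control IgG. The mock is labelled both mock and input, and the labels state neither its antibody nor the construct that any library carried. Nothing says that the replicates were separate protoplast preparations, so their differences may be technical. The promoter and the tag of the construct are not stated in the labels. Protoplasts are isolated cells without walls, which limits them as a model of the intact plant.

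TaSPL6-D belongs to the SBP-box family, plant transcription factors whose zinc-binding domain recognises short DNA elements with a GTAC core. Members of the family are known in cereals for roles in the timing of growth phases, in branching and in the shape of the spike, and many are held down by the microRNA miR156. In CUT&Tag an antibody brings a transposase to chromatin, so that fragments are released and counted where the protein lies. Accessible chromatin at genes can also be cut without the antibody, and a control library is made to measure that.

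The replicate 1-only peaks were chosen by the absence of an overlapping call in replicate 2 and in the mock. Their height, width and distance to replicate 2 peaks are tied to that choice and are given as a description. Gene context and chromosome were not used by the rule beyond the exclusion of unplaced sequence. Shares carry Wilson 95% intervals. Differences of shares carry Newcombe intervals, or stratified normal intervals wherever the sets were matched on height, background or width. All cover counting error over peaks taken as independent, although peaks of 1 library are not replicates, so no p-value is given. The other classes of replicate 1 chromosomal peaks were 57 with a mock peak but no replicate 2 peak (0.555%) and 747 with both (7.27%).

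Height is given as the whole number of fragments at the summit, solved from each peak's deposited fold enrichment and −log10 p. The median was 9 fragments for replicate 1-only peaks (quartiles 8 to 12) and 12 for recurrent peaks (9 to 19). Of the replicate 1-only peaks 42.7% had at most 8 fragments, against 17.5% of the recurrent peaks. At the other end 39 replicate 1-only peaks (0.864%) and 223 recurrent peaks (4.5%) had at least 50. The median deposited fold enrichment was 5.31 for replicate 1-only peaks and 6.08 for recurrent peaks, and the median −log10 q was 3.65 and 5.9. The heights of the sets overlapped: the lowest peak had 6 fragments in each set, and the tallest had 550 in the replicate 1-only and 1833 in the recurrent set.

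**Figure D1:**
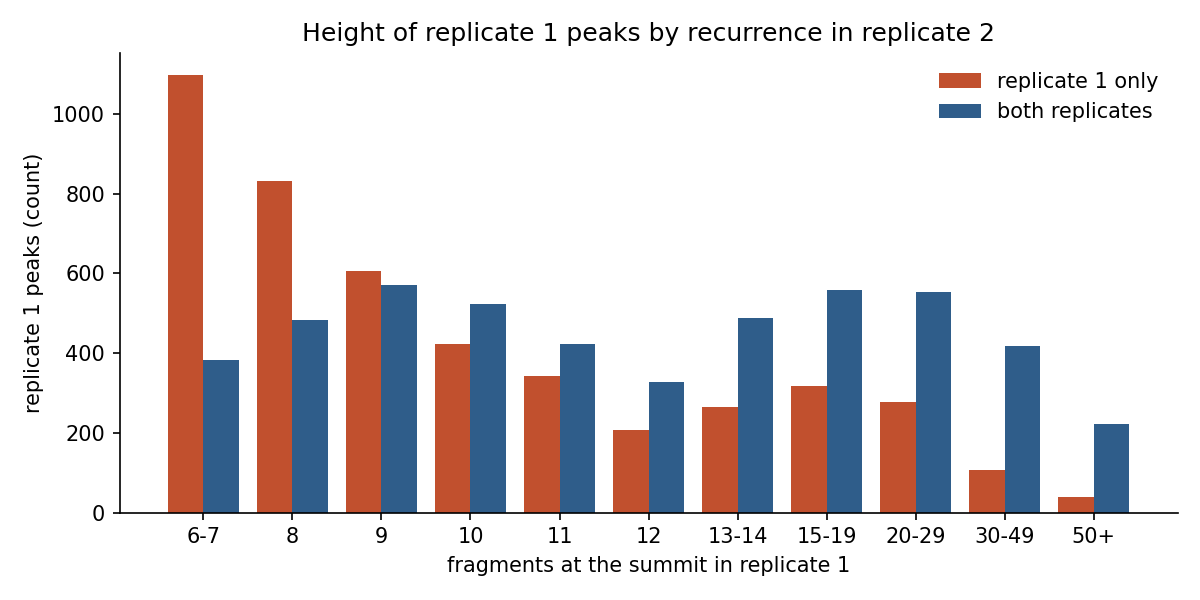
Number of replicate 1 peaks (y axis) by fragments at the summit (x axis) for replicate 1-only peaks (left bars) and recurrent peaks (right bars, both replicates), chromosomes only and without mock peaks. Replicate 1-only peaks outnumber recurrent ones up to 9 fragments, with 605 and 570 there, and are fewer in every taller class.

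The share of peaks found in replicate 1 only was lower among taller peaks. Replicate 1-only peaks made up 74.1% of the 2 sets together at 6 or 7 fragments, 51.5% at 9, 36.3% at 15 to 19 and 14.9% at 50 or more. The lowest background in the list was 0.49 fragments in replicate 2 and 0.643 in replicate 1, a ratio of 0.762, which stands in here for the unknown ratio of depths. When each peak's fragments and background were multiplied by that ratio and the fragments rounded down, 1466 of the replicate 1-only peaks (32.5%, Wilson 31.1 to 33.9%) came out below 4.98, the lowest −log10 p that replicate 2 holds. The same was so for 566 recurrent peaks (11.4%, 10.6 to 12.3%), all of which replicate 2 called. By this arithmetic 3048 replicate 1-only peaks had values that the replicate 2 list includes elsewhere. Their median was 10 fragments. The scaling leaves out the sampling spread of such low counts. It therefore cannot tell, for the 1466 or for the 3048, how many replicate 2 missed through depth and how many for other reasons.

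Replicate 1-only peaks were narrower, also at equal height. Their median width was 200 bp (quartiles 172 to 257 bp), against 292 bp (219 to 419 bp) for recurrent peaks. The shortest peak was 151 bp in each set. At 8 fragments the medians were 201 and 238 bp, at 11 fragments 212 and 312 bp, and at 15 to 19 fragments 212 and 357 bp. Across the 8 height classes up to 19 fragments the median width of replicate 1-only peaks stayed between 185 and 212 bp, while that of recurrent peaks lay between 208 and 357 bp. Of 4508 replicate 1-only peaks with recurrent peaks of equal fragments, 3396 (75.3%, Wilson 74.1 to 76.6%) were narrower than the median of those, and the median ratio of widths was 0.793. A narrow peak also has less length with which to touch another, so width is tied to the rule.

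Most replicate 1-only peaks had no replicate 2 peak within 100 kb, and 35.8% had one. Distances of scattered positions were not computed, so near and far are not judged against them. The median distance to the nearest replicate 2 peak was 468 kb (quartiles 8.96 to 1560 kb), and for recurrent peaks, measured to the nearest replicate 2 peak that they did not overlap, it was 298 kb (4.82 to 1217 kb). A replicate 2 peak lay within 1000 bp of 617 replicate 1-only peaks (13.7%, Wilson 12.7 to 14.7%) and, besides the one overlapped, of 803 recurrent peaks (16.2%, 15.2 to 17.3%). Within 10 kb the shares were 25.7% (24.4 to 27%) and 29.6% (28.4 to 30.9%). These shares are not matched on height, and within height classes the order was the other way. At 6 to 14 fragments they were 17.3% (16.1 to 18.5%) and 16.4% (15.1 to 17.7%), with overlapping intervals. At 15 to 19 fragments they were 51.6% and 33.9%, and at 20 or more 81.4% and 63%. Mock peaks were farther: 223 replicate 1-only peaks (4.94%) and 417 recurrent peaks (8.42%) had one within 10 kb. The chromosomes held only 973 mock peaks, against 6507 replicate 2 peaks, and the distances were not set against these counts.

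**Figure D2:**
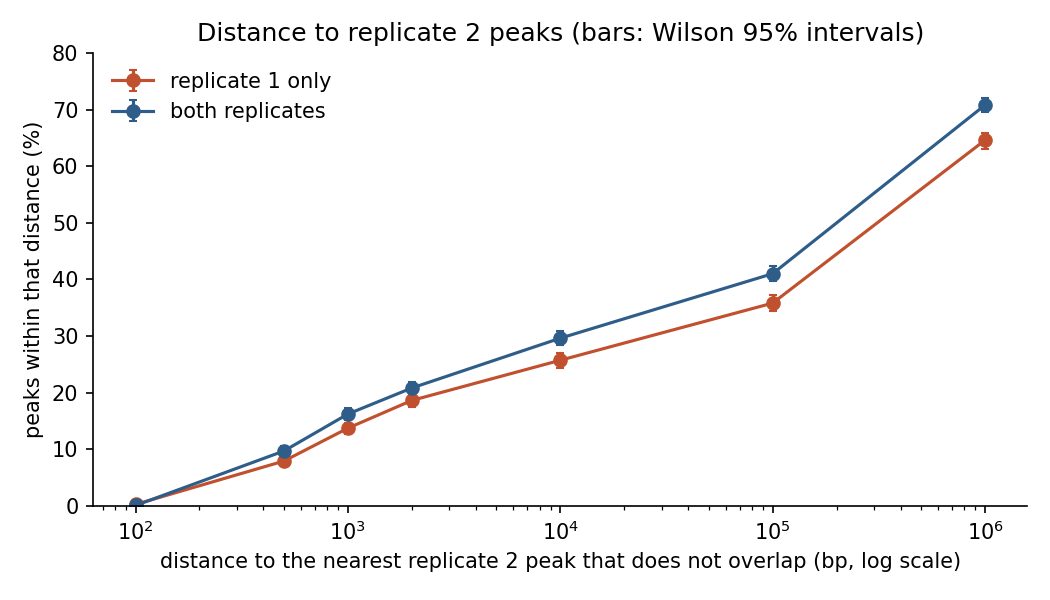
Percent of peaks (y axis) with a replicate 2 peak that does not overlap them within the distance on the x axis (bp, log scale), for replicate 1-only and recurrent peaks of replicate 1; bars are Wilson 95% intervals. The points of replicate 1-only peaks lie below those of recurrent peaks from 500 bp on, with 64.6% against 70.8% within 1000000 bp. The sets are not matched on height here.

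Replicate 1-only peaks close to a replicate 2 peak mostly had a neighbour called in both replicates, as most replicate 2 peaks were. Of the 617 within 1000 bp, 537 (87%, Wilson 84.2 to 89.5%) had as nearest neighbour a replicate 2 peak that overlapped another replicate 1 peak. In 49 of the 617 the neighbour overlapped a mock peak. Of all 6507 replicate 2 peaks on the chromosomes, 5002 overlapped a replicate 1 peak and no mock peak. Another 753 overlapped neither. Unlike the 5002, the 537 include neighbours that overlap a mock peak, and the like share of all replicate 2 peaks is not given here. The 87% is therefore not read as particular to these neighbours. The close peaks were taller, with a median of 13 fragments, than those over 1000000 bp from any replicate 2 peak, with 8, and stood on a median local background of 1.62 fragments, against 0.643. Their summits lay at genes in 49.9% of cases (46 to 53.9%), and those over 1000000 bp away in 47.6% (45.2 to 50.1%). Over the 5 distance classes it ran between 44.8% and 49.9%. Among recurrent peaks it was 45.3% within 1000 bp, 37.3% from there to 10 kb, and between 56.4% and 60% in the 3 farther classes. The gene share of replicate 1-only peaks was thus above that of recurrent peaks in both classes within 10 kb, with 49.9% and 44.8%, and below it in the 3 farther ones. These shares are not matched on height.

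At the edge of the rule, 3 replicate 1-only peaks came within 29 bp of a replicate 2 peak. The nearest, on chromosome 1D from 107586382 to 107586535, had 11 fragments and a gap of 14 bp to a replicate 2 peak of 7 fragments. The next, on 2D from 309166556 to 309166728, had 8 fragments and a gap of 17 bp, and the third, on 6A from 528296413 to 528296923, had 31 fragments and a gap of 29 bp. Just outside the rule were peaks that overlapped a replicate 2 peak by 3 bp on 7B (269198540 to 269198737, 13 fragments), by 8 bp on 4B (113255880 to 113256033, 7 fragments) and by 11 bp on 6A (82100053 to 82100263, 11 fragments). Coordinates are those of the deposited lists, counted from 1, and the lists name no genome build.

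Gene context was read from a RefSeq gene table, whose assembly is IWGSC CS RefSeq v2.1 and which places 102009 genes that code for protein on the chromosomes. A summit within 500 bp of a gene edge was found for 16.4% of replicate 1-only peaks. When all their summits were moved by 2000 bp the share was 6.96%, and when they were moved by 1000000 bp it was 1.77%. The positions of lists and table therefore correspond closely enough for distances to genes, although the table gives no strand and starts and ends of genes cannot be told apart.

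Replicate 1-only peaks lay at genes far more often than the space that genes take up. A summit in a protein-coding gene body or within 2000 bp of one was found for 2105 of 4514 (46.6%, Wilson 45.2 to 48.1%), where such windows cover 5.5% of the chromosomes, a ratio of 8.48. Among recurrent peaks it was 2651 of 4951 (53.5%, 52.2 to 54.9%), a ratio of 9.73, and over all replicate 1 chromosomal peaks 47.3%. The difference of −6.91 points (Newcombe −8.92 to −4.9) was larger than its counting error. When overlap with the mock was ignored in choosing both sets, the shares were closer, 46.4% and 48.1%. Mock peaks were at genes in 15.8% of cases (13.7 to 18.3%), a ratio of 2.88. They were taller, with a median of 17 fragments, and the mock share was not matched on height. Gene bodies alone, which cover 3.05% of the chromosomes, held 1655 replicate 1-only summits (36.7%) and 1982 recurrent ones (40%), beside 36.0% over all replicate 1 chromosomal peaks.

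At equal height the gap in gene share was wider. Low peaks of either set were at genes more often than tall ones, and the replicate 1-only peaks were mostly low. With the recurrent peaks weighted to the heights of the replicate 1-only peaks, their gene share was 61.2%, and the difference was −14.6 points (stratified normal interval −16.8 to −12.4). At 6 or 7 fragments the shares were 50.6% (47.7 to 53.6%) for replicate 1-only peaks and 65.6% (60.7 to 70.2%) for recurrent peaks. At 9 fragments they were 51.9% and 71.2%, and at 13 or 14 fragments 29.3% (24.2 to 35.1%) and 60.5% (56.1 to 64.8%), the widest gap of the 11 height classes. Replicate 1-only peaks were below recurrent ones in all 8 classes up to 19 fragments, and in each the interval of the difference lay below 0.

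In peaks of 20 or more fragments the order was not the same. Of 424 such replicate 1-only peaks 29.7% were at genes, against 23.1% of 1195 such recurrent peaks, a difference of 6.62 points (Newcombe 1.79 to 11.7). Weighted to equal heights it was 4.76 points (stratified normal interval −0.34 to 9.85), which includes 0. These tall replicate 1-only peaks stood on a median local background of 4.97 fragments, against 3.15 for the recurrent ones, and had a median fold of 4.37, against 7.7. With fragments and background matched together over all heights, the difference was −15.1 points (−17.3 to −13). With fragments and width matched together it was −10.3 points (−12.8 to −7.89). The part of background and width in the difference was not tested beyond these values.

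**Figure D3:**
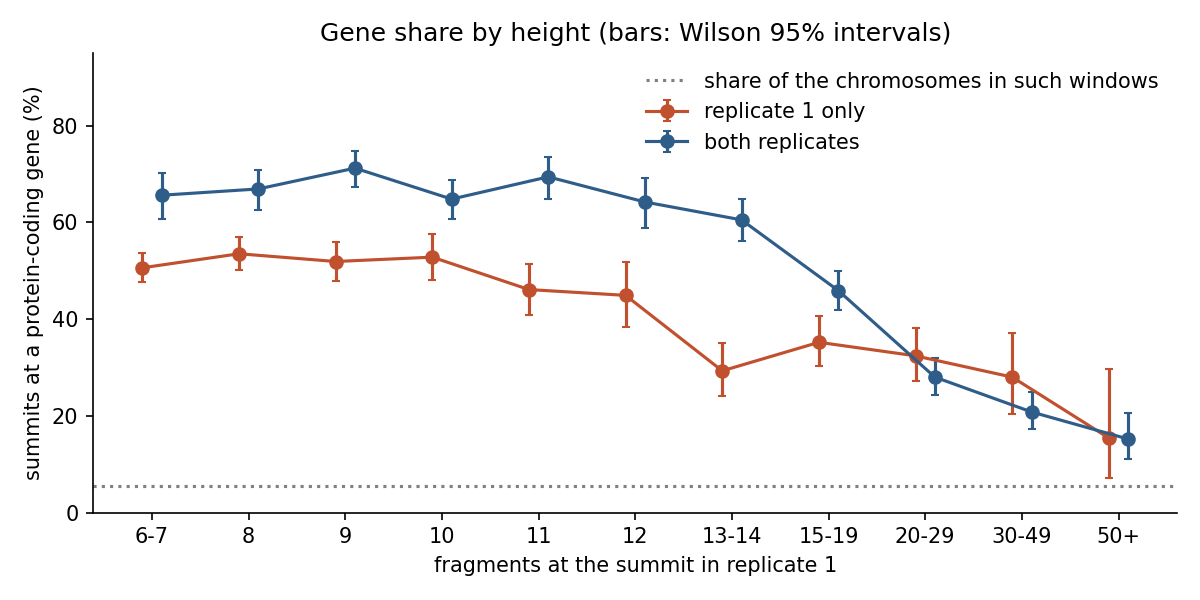
Percent of summits in a protein-coding gene body or within 2000 bp (y axis) by fragments at the summit (x axis) for replicate 1-only and recurrent peaks; bars are Wilson 95% intervals and the dotted line is the 5.5% of the chromosomes within such windows. Replicate 1-only peaks lie below recurrent ones up to 19 fragments, and the intervals overlap from 20 fragments on.

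The difference in gene share was larger at the edges of genes than deeper inside. The windows of 500 bp on either side of an edge held 739 replicate 1-only summits (16.4%, Wilson 15.3 to 17.5%) and 1126 recurrent ones (22.7%, 21.6 to 23.9%), a difference of −6.37 points (−7.96 to −4.78). Such windows cover 1.37% of the chromosomes, so the ratios to coverage were 11.9 and 16.6. Farther than 500 bp inside a gene lay 25.6% and 26.1%, a difference of −0.49 points (−2.25 to 1.28) that was within counting error. At equal height the differences were −10.2 points (−12.1 to −8.29) at edges and −3.6 points (−5.65 to −1.55) deeper inside. Both sets were densest just inside an edge: the first 250 bp inside held 5.67% of replicate 1-only and 7.63% of recurrent summits, and the first 250 bp outside held 3.66% and 5.57%.

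**Figure D4:**
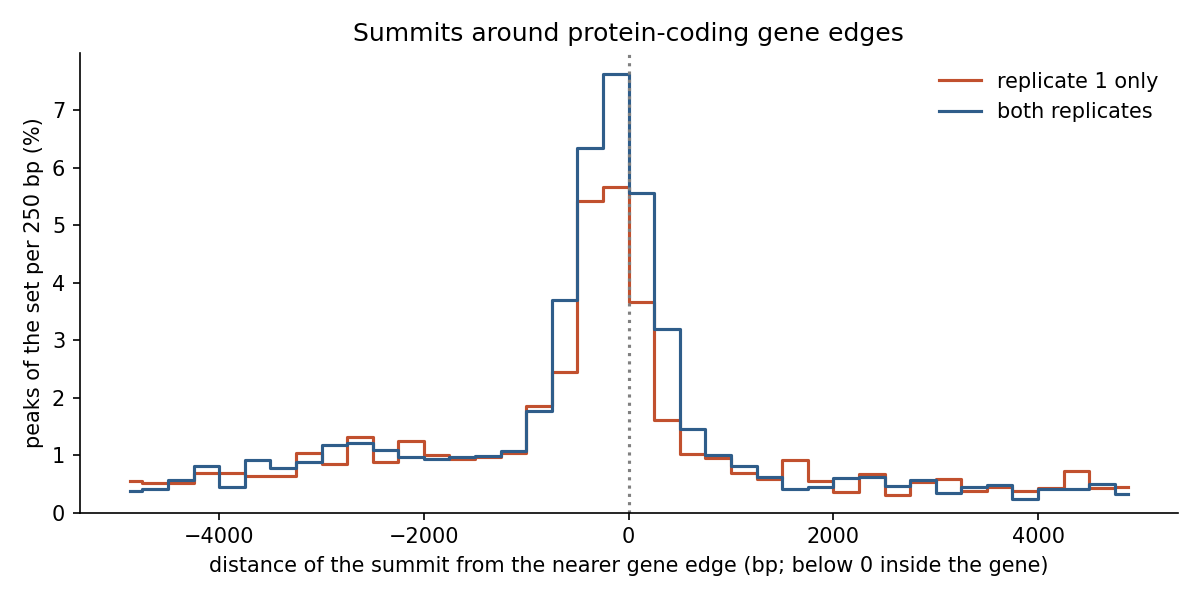
Percent of each set's peaks per 250 bp (y axis) by distance of the summit from the nearer edge of the nearest protein-coding gene (x axis, bp, below 0 inside the gene). Both curves peak in the 250 bp inside the edge, at 5.67% for replicate 1-only and 7.63% for recurrent peaks. Farther than 1000 bp from the edge, on either side, no plotted 250 bp holds more than 1.31% of either set.

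Tall replicate 1-only peaks in genes were mostly in long genes. Of 110 replicate 1-only summits of 20 or more fragments in gene bodies, 77 (70%, Wilson 60.9 to 77.8%) lay in genes over 10 kb long, and the 110 fell in 75 different genes. Among 204 recurrent summits of that height in gene bodies it was 109 (53.4%, 46.6 to 60.1%). Among summits of 6 to 14 fragments in gene bodies the shares were 32.1% and 27.5%. A long gene offers more room for a summit, and the shares were not set against gene length. Replicate 1-only peaks of 20 or more fragments were also crowded: 56.4% (51.6 to 61%) had another replicate 1-only peak within 10 kb and 81.4% a replicate 2 peak within that distance, against 14.1% and 17.3% of those with 6 to 14 fragments. Tall recurrent peaks were crowded as well: 54.2% (51.4 to 57%) had another recurrent peak within 10 kb. Fewer of them, 63% (60.2 to 65.7%) against 81.4% (77.4 to 84.8%), had a replicate 2 peak that they did not overlap within that distance.

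The 5 genes with the most replicate 1-only summits were 17034 to 42061 bp long. LOC123086070 on 4A, 35644 bp long, held 6 replicate 1-only summits and 3 recurrent ones. Of its replicate 1-only peaks 4 lay between 341628769 and 341632200 with 20 to 26 fragments, folds of 3.04 to 3.95 and a local background of 5.83 to 5.93 fragments, and each had a replicate 2 peak within 874 bp. LOC123045062 on 2B, 27361 bp long, held 5 from 388490618 to 388494574, with 20 to 23 fragments, folds of 3.52 to 4.08 and a background of 4.84 to 4.97. No recurrent summit lay in that gene, and the nearest replicate 2 peak was 2386 kb away. LOC123156705 on 7B, of 42061 bp, held 5 with 12 to 17 fragments beside 1 recurrent summit. LOC123069924 on 3B and LOC123137338 on 6B held 4 each and no recurrent one. In LOC123069924 a replicate 2 peak of 17 fragments lay 39 bp from one of the 4. In LOC123137338 the nearest replicate 2 peak was 74.4 kb away. The gene table gives none of these 5 genes a common name.

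Genes with a replicate 1-only summit in the body or within 2000 bp numbered 2037, or 2.00% of protein-coding genes. Genes with a recurrent summit numbered 2580, or 2.53%. The 379 genes with both kinds were 18.6% of the first list and 14.7% of the second, which left 1658 genes with a replicate 1-only summit and no recurrent one, or 329 when only replicate 1 peaks with a −log10 q of at least 5 were used. A single replicate 1-only summit lay at 1838 genes, 2 at 172 and 3 or more at 27. Of the replicate 1-only peaks at genes, 437 (20.8%) were at a gene that also held a recurrent summit. The median length was 4456 bp (quartiles 2138 to 8905 bp) for genes with replicate 1-only summits alone, 6133 bp for genes with both kinds, 3744 bp for genes with recurrent summits alone and 2956 bp for all protein-coding genes.

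The 15 replicate 1-only peaks of highest fold at genes had 15 to 35 fragments. The first was at LOC123058418 on 3A, from 456149970 to 456150214, with its summit 499 bp inside the gene. It had 35 fragments over a background of 0.742 and a fold of 20.7, and the nearest replicate 2 peak lay 117 kb away. LOC123069539 on 1A (579348645 to 579348843) followed, with 24 fragments, a fold of 14.2 and a summit 246 bp inside the gene. Its nearest replicate 2 peak was 655 kb away.

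LOC123038324 on 2A (785317501 to 785317707) had 22 fragments and a fold of 12.3 at a summit 1063 bp outside the gene. LOC100049028 on 1A (575513173 to 575513628) had a peak 456 bp wide with 19 fragments and a fold of 12.2, 518 bp inside the gene. LOC123119345 on 5D (45470047 to 45470271) had 17 fragments and a fold of 11, and the nearest replicate 2 peak was 3039 kb away. The folds of the 15 ran down to 8.89, and each had a −log10 q of at least 11.3.

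Of these 15, the genes of 3 also held a recurrent summit. LOC123092099 on 4B (324513138 to 324513367) had a replicate 1-only peak of 17 fragments, 571 bp from a replicate 2 peak. LOC123091495 on 4B (139551580 to 139551738) had one of 23 fragments, with a replicate 2 peak 5.66 kb away. LOC123041287 on 2B (400441158 to 400441313) had one of 20 fragments, 504 bp from a replicate 2 peak of 12 fragments. The table gives no common name for the 15 genes.

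The table has common names for 180 of the genes that code for protein. Of these, 8 (4.44%) had a replicate 1-only summit and 6 (3.33%) a recurrent one, with 2 genes in both, beside 2.00% and 2.53% of all protein-coding genes. The genes with both kinds are these. LOC543315 (PRO1) encodes profilin, an actin-binding protein, and had a replicate 1-only peak of 10 fragments on 7A (68245709 to 68245887), 314 bp from a replicate 2 peak of 13 fragments. LOC123103210 (UBA2), a ubiquitin-activating enzyme, had one of 9 fragments on 5A (330316655 to 330316857), 1195 bp outside the gene, with the nearest replicate 2 peak 7.75 kb away.

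In the other 6 named genes no recurrent summit was found. LOC543314 (FKBP70), a peptidyl-prolyl isomerase, had 9 fragments and a fold of 5.12 on 7B (217451657 to 217451907), 515 bp inside the gene. LOC100682494 (TaHop), a co-chaperone of heat shock proteins, had 8 fragments and a fold of 5.48 on 6B (523247503 to 523247665), 40 bp outside. LOC543417 (Eif4B), a translation initiation factor, had 8 fragments and a fold of 5.48 on 2D (432767609 to 432767781), 493 bp inside.

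LOC543149 (ha1), a proton-pumping ATPase, had 7 fragments and a fold of 4.25 on 2A (735143194 to 735143428), 528 bp inside. LOC542997 (XIP-I), an inhibitor of xylanases, had 7 fragments and a fold of 4.87 on 4D (127386852 to 127387080), 297 bp inside. LOC123064930 (H2B153), a histone of nucleosome cores, had 6 fragments and a fold of 4.26 on 3B (91964620 to 91964810), 681 bp outside. These 6 rested on 6 to 9 fragments, at or under the median of the replicate 1-only peaks, with nearest replicate 2 peaks 311 kb or more away. Of 12 matched housekeeping genes 1 had a replicate 1-only summit and 1 a recurrent one, and of 7 matched chloroplast and photosynthesis genes 0 and 1 did, beside the same 2.00% and 2.53% of all protein-coding genes.

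The tallest replicate 1-only peak stood apart from the rest. It lay on 5A from 346441646 to 346442173, 528 bp wide, with 550 fragments, a fold of 48.1 and a −log10 q of 708. The nearest protein-coding gene was 86.5 kb away. The nearest replicate 2 peak, of 23 fragments, was 139 kb away, and the nearest mock peak 6865325 bp away.

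The other 4 of the 5 tallest had low folds on high local backgrounds and lay beside tall replicate 2 peaks. The peak on 3D from 96733790 to 96733949 had 178 fragments over a background of 49.2 and a fold of 3.56, and a replicate 2 peak of 683 fragments lay 1519 bp away. On 1B, peaks of 155 fragments (551356336 to 551356726) and 143 fragments (551357258 to 551357450) had folds of 1.7 and 1.58 over backgrounds of 90.8 and 90.1. The last, on 4B (291489551 to 291489864), had 139 fragments and a fold of 2.56, 408 bp from a replicate 2 peak of 230 fragments. Mock peaks lay 483 to 1803 bp from these 4.

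Across chromosomes the density of replicate 1-only peaks lay between 27.9 per 100 Mb on 6D and 39.1 on 1B. That of recurrent peaks lay between 29.4 on 4A and 6A and 48.6 on 5D. The replicate 1-only share of the 2 sets together was 47.7% over all chromosomes, lowest on 5D with 42.5% (Wilson 38.2 to 47%) and highest on 2A with 51.5% (47.3 to 55.7%). The gene share of replicate 1-only peaks was below that of recurrent peaks on 20 of 21 chromosomes. The exception was 7B, with 45% and 43%. At equal height it was below on all 21, with differences between −24.7 points on 2B (−33.3 to −16.1) and −4.16 points on 7B (−13.7 to 5.34). The interval included 0 on 4B, 6A, 6D and 7B.

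**Figure D5:**
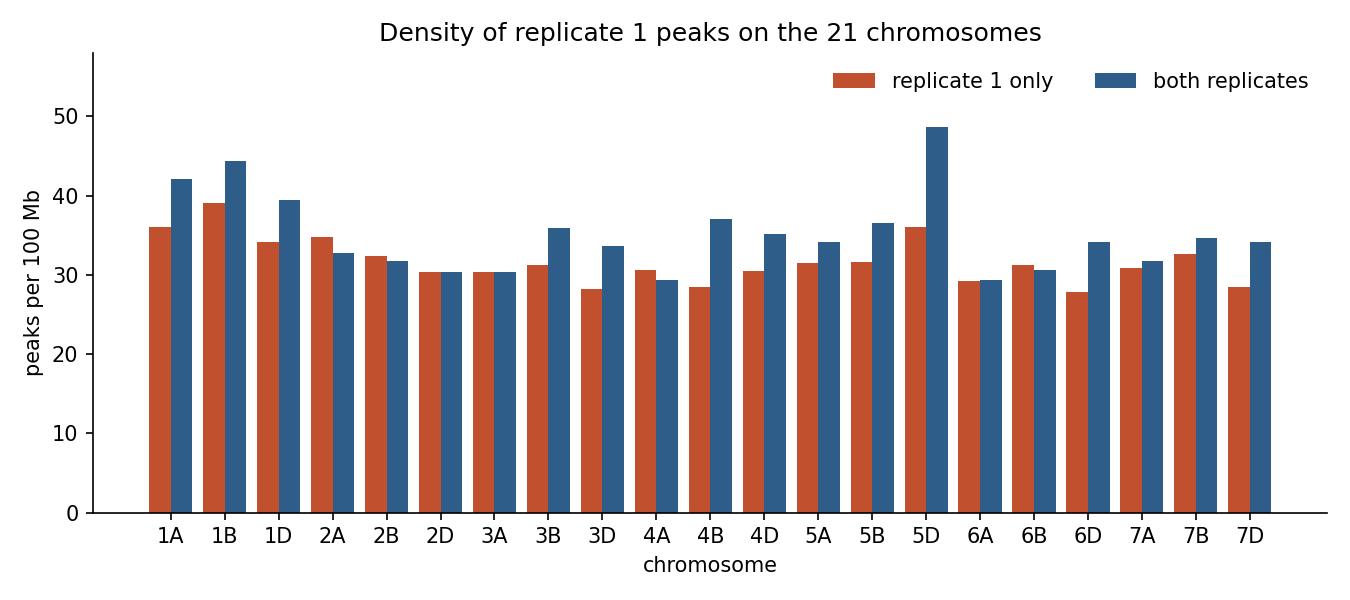
Peaks per 100 Mb (y axis) on each chromosome (x axis) for replicate 1-only peaks (left bars) and recurrent peaks (right bars). Replicate 1-only peaks lie between 27.9 and 39.1 per 100 Mb, and recurrent peaks reach 48.6 on 5D.

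Bread wheat carries the subgenomes A, B and D. The A chromosomes held 1587 replicate 1-only peaks, B 1699 and D 1228, or 35.2%, 37.6% and 27.2%, beside 35%, 36.9% and 28.1% of the chromosome length. Recurrent peaks had 32.8%, 37.9% and 29.3%. The replicate 1-only share was 2.38 points higher on A (Newcombe 0.466 to 4.29) and lower on D, with a difference of −2.14 points (−3.96 to −0.326), and on B the difference was −0.233 points (−2.19 to 1.72). Per 1000 protein-coding genes the replicate 1-only density was 47.9 on A, 48.3 on B and 36.4 on D, and the recurrent density 49, 53.3 and 43.1. Gene shares of replicate 1-only peaks were 47.1%, 43% and 51% on A, B and D, each below the 55.3%, 49.7% and 56.6% of recurrent peaks.

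The outer 10% at each end held 24.4% of replicate 1-only peaks (Wilson 23.2 to 25.7%) and 25.9% of recurrent peaks (24.7 to 27.2%), beside 36.3% of protein-coding genes. At equal height the gene share of replicate 1-only peaks differed from that of recurrent peaks by −13.8 points (−18.1 to −9.41) in the outer zones and by −16.3 points (−20.2 to −12.4) in the central 40%.

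Non-coding genes and pseudogenes were counted by summits within 2000 bp, and the chromosome length that such windows cover was not computed. Within 2000 bp of an rRNA gene were 46 replicate 1-only peaks (1.02%, Wilson 0.765 to 1.36%), against 81 recurrent peaks (1.64%, 1.32 to 2.03%) and 34 of the 973 mock peaks (3.49%). Near tRNA genes the shares were 2.02% and 2.52%, and 8.74% in the mock. Long non-coding RNA genes had 4.14% and 4.52% near them, and pseudogenes 4.76% and 4.65%. Near snRNA genes lay 8 replicate 1-only and 9 recurrent peaks. No interval was computed for these differences.

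The corresponding peaks of replicate 2, called there and neither in replicate 1 nor in the mock, numbered 753, with a median of 8 fragments and of 197 bp in width. They were at genes more often than the replicate 1-only peaks, with 55.5% (Wilson 51.9 to 59%) against 46.6%. The difference, replicate 1-only minus replicate 2-only, was −8.88 points (Newcombe −12.7 to −5.02). It was not matched on height, and the median of replicate 1-only peaks was 9 fragments. Against replicate 2 peaks found in both and weighted to equal heights, the gene share of replicate 2-only peaks differed by −5.46 points (stratified normal interval −9.42 to −1.51), with 55.5% against 61%. The same contrast in replicate 1 was −14.6 points (−16.8 to −12.4). Both lay below 0, and the difference between the replicates was not tested.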

How the data were processed

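CUT&Tag libraries of 2 replicates and 1 mock were used as peak lists. Per the submitters' processing notes, bcl2fastq 2.17, Trimmomatic 0.39 and MACS2 2.2.7.1 were used. No aligner, genome build or calling option is named there, nor whether the mock served as control in the calls. One list per library was deposited. The deposited fold enrichment is a linear ratio, the deposited −log10 p and −log10 q are the authors' (lowest −log10 q 1.31), and the deposited score was not used. From the authors' fold and −log10 p, whole fragments at the summit were solved for 100% of peaks within a relative tolerance of 1e-04, with 1 added to fragments and background. Depth in reads is unknown. The lowest background was 0.643, 0.49 and 0.36 fragments in replicate 1, replicate 2 and the mock.

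Overlap, gene distance and shares were computed in Python 3.11.15 with numpy 2.4.6, pandas 2.3.3 and scipy 1.17.1, tested on simulated lists. Unplaced sequence, which held 2579 replicate 1 peaks, was left out. Chromosome length was taken up to the last gene or peak. Members and gene lists were chosen with earlier results of these data known. Named peaks were the 5 tallest, the 15 of highest fold at genes, those at genes with common names, the 3 on either side of the overlap threshold and the 5 genes with most summits. No sequence was used, so the GTAC core was not searched. Gene lists for SBP-box, salt, flowering and branching genes matched 0 names and are not analysed here. Fragments carry no molecular identifiers. Intervals are over numbers of peaks and cover counting error only.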

Additional observations from a re-analysis of the deposited data

Results flagged for a closer look

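Unplaced sequence, outside the comparisons above, also held peaks found in replicate 1 only: 803 of its 2579 replicate 1 peaks overlapped no replicate 2 and no mock peak, with a median of 11 fragments, while 31 of 781 mock peaks there were found in the mock alone.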

How the results depend on the processing

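The alternatives gave 95 values, of which 59 stayed within the interval of the reported one (counts: within 1.5 times) and 36 moved. Reversal was scored only for the difference at equal height, and 0 of its 14 values reversed. The gene share of replicate 1-only peaks was below that of recurrent peaks in 10 of 11 settings. The exception was the swap of replicates, without matching on height. The difference at equal height lay below 0 with its whole interval in 14 of 14 settings. With −log10 q of at least 5 in replicate 1, there were 1281 members and 329 genes with a member summit only, the gene shares were 29.4% in members and 42.7% in recurrent peaks, the difference at equal height −19.7 points, the share with a replicate 2 peak within 10 kb 34.1%, and the medians 13 fragments and 214 bp. With replicates swapped, there were 753 members and 365 such genes, a gene share of 55.5%, a difference of −5.46 points, 34.5% within 10 kb, a D share of 29.6% and medians of 8 fragments and 197 bp. Members over 1000 bp from replicate 2 peaks gave −16.9 points and 13.9% within 10 kb. With the mock ignored, the gene share was 46.4% (44.9 to 47.8%) in members and 48.1% (46.8 to 49.4%) in recurrent peaks, with overlapping intervals. The difference at equal height was then −14 points (−16.1 to −11.8). Without peaks within 10 kb of tRNA or rRNA genes the recurrent gene share was 56%, and 22.8% of members had a replicate 2 peak within 10 kb. With −log10 q of at least 2 in every list the median width was 204 bp. Gene windows of 500, 1000 and 5000 bp gave member shares of 41.9%, 43.9% and 52.3% and recurrent shares of 48.8%, 51.3% and 59%. Matching on fragments and width together gave −10.3 points and on fragments and background together −15.1 points, both chosen after seeing the data. With either replicate left out, recurrence could not be scored, and all mock-free peaks had gene shares of 50.2 to 53.6%, D shares of 28.3 to 29.4%, a median of 10 fragments and median widths of 238 to 243 bp. The cause of these moves was not tested. No paired analysis was possible because 1 mock library cannot be paired with each replicate. The lists hold few fragments per peak, which limits what can be told of any single site.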
